A study of Mus musculus with 11 samples.

Results

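The cells described here are 181 inner hair cells (IHCs) of the newborn mouse cochlea, found by a gate on 4 genes. They are among the 14043 deposited cells of postnatal day 1 (P1) and the 30634 of the whole series. A cell was taken as a hair cell (HC) when its deposited value, the natural log of 1 plus the gene's transcripts per 10000, was at least 1.5 for Myo6, the unconventional myosin of hair cells, and at least 2.0 for Ccer2, and as an IHC when it also held any Fgf8, the growth factor that IHCs secrete, and stayed under 3.5 for Oc90, an otoconial protein of the cochlear roof. The 4 P1 libraries gave 44, 30, 45 and 62 such cells. They were set beside the 769 hair cells of the same libraries (150, 114, 162 and 343 cells) that passed the Myo6 and Ccer2 thresholds and held no transcript of Fgf8 or of Tbx2, a T-box transcription factor of IHCs, called Fgf8-negative HCs below. These 5 genes chose the cells of both groups and are left out of every test. All other genes were read from the same cells.

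The study captured single cells from the cochlear duct floor of wildtype CD1 mice at embryonic days 14 and 16 (E14, E16), P1 and P7 with 10x Chromium, asking how the cell types of the organ of Corti arise. Each library is a pool of cochlear sensory epithelia from animals of 1 litter, so each value is a mean over pooled animals of either sex and over all turns of the duct, and libraries count as the replicates. P1 and E16 libraries are used here, with 4 and 3 libraries, and both ages share strain, genotype and tissue, with no treatment. At P7 the same gate found 3 IHCs and 2 Fgf8-negative HCs among 3377 cells, too few for a profile, and E14 was not used. The paper reports many more IHCs and OHCs at P7 from its clusters, so the gate misses most hair cells of that age. Only 0.282 and 0.187% of cells in P7 replicates 4 and 5 reached the Ccer2 limit, against 6.48 to 8.94% in the P1 libraries.

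Inner hair cells are the sensory receptors that pass sound to the brain: they release glutamate onto spiral ganglion neurons at ribbon synapses, whereas outer hair cells (OHCs) amplify sound mechanically. Both kinds need Atoh1 to form, and around birth IHCs fire calcium action potentials before hearing begins. They differ from OHCs in their calcium buffers, their synapse proteins and their position beside Kölliker's organ.

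Few of the cells with Fgf8 lay near the Ccer2 limit. Their lowest Ccer2 values inside the gate were 2.62, 2.77 and 3.0, and 3 cells met every other condition but stood outside at 1.42, 0.761 and 0. The Fgf8-negative HCs came closer to this limit, with a lowest value of 2.03. For Myo6 the limit ran through a continuum: the lowest values inside were 1.53, 1.55 and 1.56, the highest outside were 1.47, 1.46 and 1.44, and 16 cells were left out by this limit alone. No cell was removed by Oc90, whose highest value among the IHCs was 1.59. Fgf8 ranged from 1 to 35 unique molecular identifiers (UMIs, single counted transcripts) per cell with a median of 10, and 8 cells rested on 1 UMI. Tbx2, which the rule did not ask for in the IHCs, was found in 123 of them (68.0%), at 75.0, 73.3, 68.9 and 59.7% in the 4 libraries. Outside the HC gate, Fgf8 was found in 66 of 13077 P1 cells (0.505%) and Tbx2 in 8.58%.

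The IHCs made up 22.2, 20.1, 21.6 and 15.1% of the HCs in the gate (19.8% ± 3.24, SD, n = 4). The exact (Clopper-Pearson) 95% interval ran from 16.6 to 28.7% in replicate 1 and from 11.8 to 18.9% in replicate 4, which had the lowest share. Replicate 4 was also the shallowest library: its IHCs held a median of 5259 UMIs, against 10090, 7511.5 and 8615 in replicates 1 to 3. After every cell was drawn down to 1500 UMIs the share was 16.2% ± 3.71 (n = 4), still lowest in replicate 4 (10.9%). Of all deposited P1 cells the IHCs were 1.36% ± 0.306 (n = 4). These intervals cover counting error only, and since the rule sets the shares they are a description without a test.

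Within a library the groups were of nearly equal depth, and most marker lists of other cell types overlapped between the groups. IHCs, Fgf8-negative HCs and cells outside the gate held medians of 7586, 6575 and 4825 UMIs per cell over the 4 libraries together. Fgf8-negative HCs held 9529, 7432.5, 8192.5 and 5338 in replicates 1 to 4, beside the IHC medians above. More than 3000 genes were found in 86 of the 181 IHCs and in 252 of the 769 Fgf8-negative HCs. The paper names 3000 genes, together with a number of UMIs, as an upper limit for the cells it kept. The counts without such cells are given at the end. Between 5 and 27 cell barcodes were shared by a pair of P1 libraries, none of them of an IHC. Scrublet called 2 IHCs (both in replicate 1) and 24 Fgf8-negative HCs doublets. The summed level of 10 markers of Kölliker's organ was 2309 to 5464 CPM (the gene's share of a cell's UMIs scaled to 1000000) in IHCs and 2171 to 6052 in Fgf8-negative HCs, against 27648 to 31864 outside the gate, and that of 9 inner phalangeal cell markers was 159 to 291, 122 to 250.2 and 1633 to 2080.4. Pillar and Deiters cell markers (10 genes) summed to 149.9 to 248 in IHCs and 176 to 289.6 in Fgf8-negative HCs, and Hensen, roof, glial, mesenchymal and blood lists summed to at most 108 CPM in any P1 HC profile. In IHCs 3 of 6 mesenchymal markers, 2 of 4 roof markers and 4 of 8 blood markers were at 0. A list of 6 neuronal markers did move, at 628 to 1768 CPM in IHCs and 523.8 to 883 in Fgf8-negative HCs, through the neurofilaments Nefl and Nefm, and its part in the results was not tested.

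The comparison cells carried OHC genes, so the label of both groups could be checked on genes outside the gate. Of 7 genes that the study names for P1 OHCs, all 7 were tested and all 7 were lower in IHCs, and of 5 it names for P1 IHCs, all 5 were higher. These lists were chosen by the study on these libraries, so they are not independent evidence. Slc26a5, the OHC motor protein prestin, was listed at 0 in 4 of 4 IHC profiles and at 0, 0, 0 and 3.03 CPM in the Fgf8-negative HCs. The calcium buffer Ocm was at 57.1, 50, 36.4 and 54.7 CPM in IHCs and 103, 47.4, 33.9 and 102 CPM in Fgf8-negative HCs and did not pass the test (log2 difference -0.35 ± 0.20, adjusted p = 0.311).

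Tested across 8883 genes with limma on log2(CPM + 10), with library as a block, 473 genes were higher in IHCs (5.32% of those tested) and 634 were lower (7.14%). In all, 12.5% of the genes passed, and 23.3% had an unadjusted p under 0.05. Of the calls, 154 and 179 differed at least 2-fold, and the median log2 difference over all genes tested was -0.03. Log2 fold changes below are IHC minus Fgf8-negative HC on this log2(CPM + 10) scale with their standard errors, which understates the change of weakly expressed genes, and adjusted p-values are Benjamini-Hochberg values over all genes tested. Values are listed for replicates 1 to 4 in order. P-values here set the difference between the 2 groups against its variation from library to library. In limma that variation is moderated for each gene towards a trend over all genes tested. The very small p-values therefore rest in part on the other genes and not on the libraries of 1 gene alone.

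**Figure D1:**
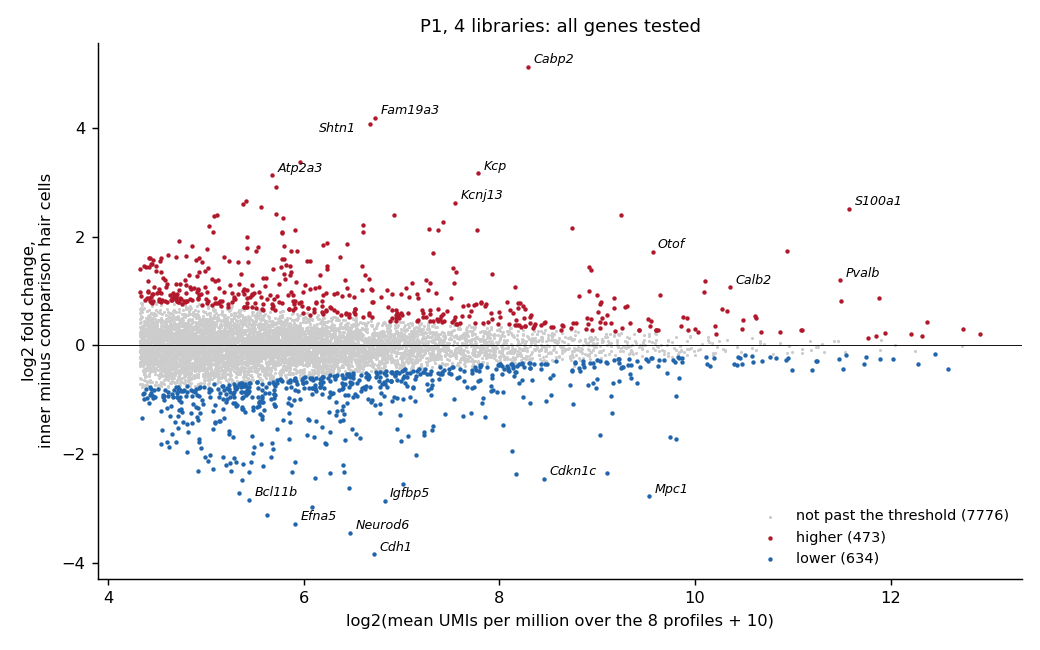
Log2 fold change of each of the 8883 genes tested at P1, IHC minus Fgf8-negative HC (y axis), against log2 of the mean CPM over the 8 profiles plus 10 (x axis). Red points are the 473 higher and blue points the 634 lower genes, grey points did not pass an adjusted p of 0.05, and Cabp2 and Cdh1 lie farthest from 0 among the labelled genes.

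On the log2(CPM + 10) scale, which ranks weakly expressed genes lower, Cabp2 had the largest difference among the named rises. Cabp2, a calcium-binding protein that keeps the IHC calcium channel open (chr19:4081578-4087340, plus strand), stood at 821, 709, 584 and 286 CPM in IHCs and at 9.18, 4.92, 7.33 and 4.44 CPM in Fgf8-negative HCs. Each IHC library was far above each comparison library, with a 92.8-fold ratio of means (log2 fold change 5.12 ± 0.18, adjusted p = 1.08e-29). Drawn down to 1500 UMIs a cell, 48.1% of IHCs held a Cabp2 UMI (exact 95% interval 40.6 to 55.6%) against 0.52% of Fgf8-negative HCs and 0.191% of cells outside the gate. This interval and those for single genes below pool the cells of the 4 libraries. They cover counting error only and leave out the spread between libraries. Without thinning the shares were 81.2, 4.03 and 0.512% at the median depths given above.

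Otof, which encodes otoferlin, the calcium sensor for vesicle release, was present in both groups and higher in IHCs, at 891, 1349, 1336 and 1051 against 308, 381, 363 and 305 CPM (3.41-fold, log2 1.73 ± 0.08, adjusted p = 3.57e-23). Slc17a8, the vesicular glutamate transporter of IHCs, was detected weakly, at 19.8, 13, 21.6 and 26.8 CPM in IHCs and 0, 1.21, 0.901 and 1.63 CPM in the others, and Dnajc5b, a vesicle chaperone, at 21.2, 24.2, 19.1 and 28.5 and 1.39, 5.14, 4.71 and 0.981 CPM. Both were higher in IHCs (log2 1.45 ± 0.27 and 1.36 ± 0.27, adjusted p = 5.42e-05 and 1.39e-04), and neither passed once cells were drawn down to 1500 UMIs (adjusted p = 0.0647 and 0.113). The ranges of the groups did not overlap for Otof, Slc17a8 or Dnajc5b. Cacna1d, the pore of the presynaptic calcium channel, was at 142, 187, 143 and 251 CPM in IHCs and 90.3, 102, 91.9 and 163 CPM in Fgf8-negative HCs, ranges that overlap, but was higher in IHCs within each library (log2 0.65 ± 0.14, adjusted p = 6.25e-04). Its call was lost after thinning (adjusted p = 0.333), without cells over 3000 genes (0.309) and without the library term (0.377). Among 25 tested genes of the ribbon synapse 6 rose (24%), 2 fell (8%) and 17 did not pass, against 5.32 and 7.14% of all genes. Their median log2 difference was -0.07, close to the -0.03 of all genes. The rises include Cabp2, which the study names for P1 IHCs from these libraries. Of the 8 calls, 5 held without each library in turn, and Ctbp2, the main protein of the ribbon, was one that did not pass (log2 0.36 ± 0.17, adjusted p = 0.182).

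Among the lists built on function, calcium handling had the largest share of rises: 8 of 12 tested genes rose (66.7%), 1 fell (8.33%) and 3 did not pass (median 0.40). Of all genes tested, 5.32% rose and 7.14% fell. Of the 9 calcium handling calls, 8 held without each library, 3 without the library term and 7 after thinning. They include Atp2a3, which the study names for P1 IHCs. S100a1, a small calcium-binding protein (chr3:90511034-90514392, minus strand), was the most abundant of the named rises, at 5799, 5990.2, 5714 and 3273 CPM in IHCs and 1056, 933, 950.3 and 635 CPM in Fgf8-negative HCs (log2 2.51 ± 0.06, adjusted p = 5.92e-39). Replicate 4 was the lowest library in both groups, and the ratio held in each of the 4. Drawn down to 1500 UMIs, each of the 181 IHCs and 62.8% of Fgf8-negative HCs held an S100a1 UMI, against 31.7% outside the gate (each IHC, 92.2% and 49.2% unthinned).

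Atp2a3, a calcium pump of the endoplasmic reticulum, was detected in IHCs and not in the Fgf8-negative HCs. It stood at 97.1, 74.5, 41.2 and 117 CPM in IHCs and had no UMI in any of the 769 Fgf8-negative HCs, which allows up to 0.390% of such cells to hold a UMI and sets no limit on how many express it. With 3 UMIs over the whole comparison group as a floor it was at least 145-fold higher (log2 3.13 ± 0.26, adjusted p = 2.65e-14 with the added 10 CPM). Thinned, 9.39% of IHCs held a UMI of it (exact 95% interval 5.57 to 14.6%) against 0.0459% outside the gate, and unthinned 32.6 and 0.13%.

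Of the mobile calcium buffers, Calb2 and Pvalb were found in both groups and were higher in IHCs. Calb2 (calretinin) was at 2587, 1750.3, 1237 and 1369 CPM in IHCs and 1515, 702, 506 and 724 CPM in Fgf8-negative HCs, and Pvalb (parvalbumin) at 4755, 4739.6, 3881 and 2579 and 1988, 1941, 1858 and 1134 CPM (log2 1.06 ± 0.07 and 1.19 ± 0.05, adjusted p = 3.52e-17 and 8.67e-26). For Calb2 the ranges overlap between libraries while the difference has 1 sign within each. The plasma membrane calcium pumps went in opposite directions: Atp2b1 rose (963, 1208, 1083 and 1246 against 625, 774, 813 and 955 CPM, log2 0.51 ± 0.07, adjusted p = 2.68e-07), and Atp2b2, the pump of hair bundles, fell (64.3, 49.2, 53.1 and 49.1 against 87.1, 116, 105 and 144 CPM, log2 -0.93 ± 0.18, adjusted p = 1.07e-04). Without the library term Calb2, Atp2b1 and Atp2b2 did not pass, with Calb2 at an adjusted p of 0.115.

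**Figure D2:**
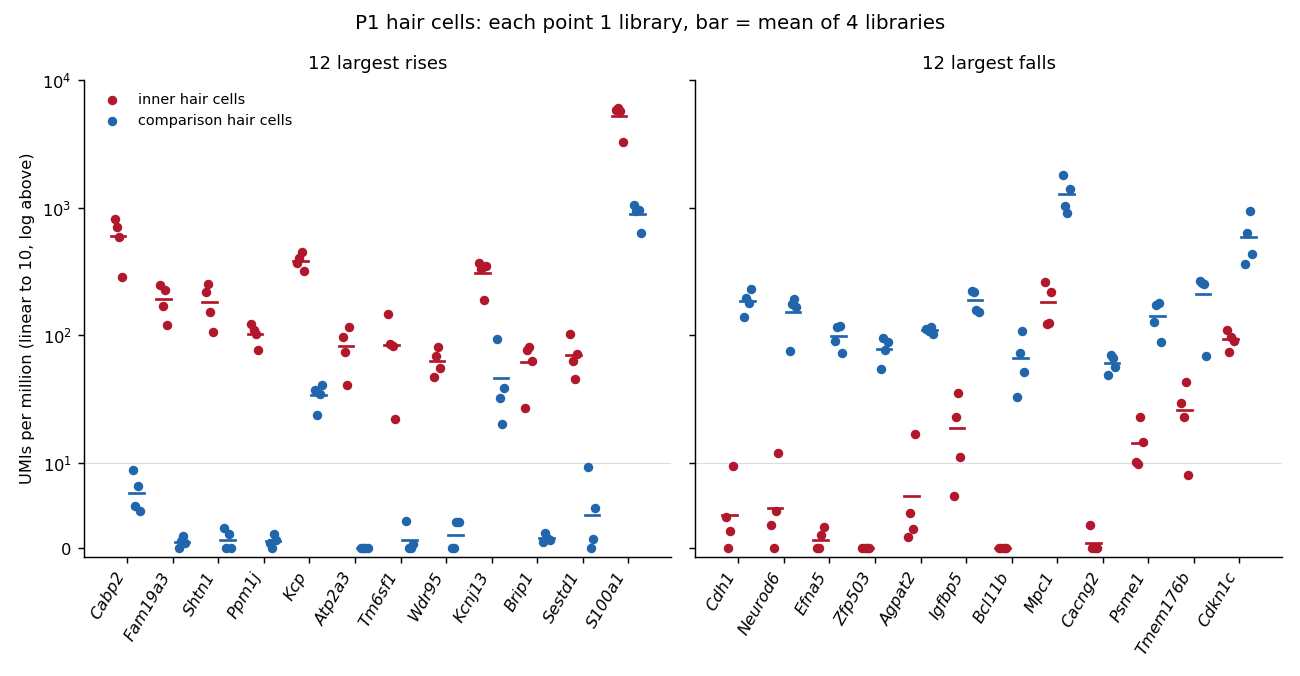
Levels of the 12 named rises (left) and 12 named falls (right) at P1 in CPM (y axis, linear to 10 and log above), with 1 point per library for IHCs (red) and Fgf8-negative HCs (blue, called comparison hair cells in the key) and a bar at the mean of 4 libraries. The groups do not overlap for any of the 24 genes, and Atp2a3, Zfp503 and Bcl11b lie at 0 in one of them.

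Ion channels and receptors split evenly. Of 16 tested members 5 rose (31.25%), 5 fell (31.25%) and 6 did not pass (median 0.18), against 5.32 and 7.14% of all genes. The calls include Kcnj13 and Cacng2, which the study names from these libraries for P1 IHCs and P1 OHCs. Kcnj13, an inward rectifier potassium channel (chr1:87386363-87394729, minus strand), was at 371, 328, 187 and 349 CPM in IHCs and 93, 32.1, 20.3 and 38.7 CPM in Fgf8-negative HCs (log2 2.62 ± 0.16, adjusted p = 5.69e-19), and Kcna10, a voltage-gated potassium channel, at 321, 309, 238 and 102 and 86.6, 37.8, 43.7 and 22.2 CPM (log2 2.13 ± 0.17, adjusted p = 3.81e-15). Chrna1 and Chrng, the alpha and the fetal gamma subunit of the muscle type acetylcholine receptor, rose together: Chrna1 was at 401, 221, 226 and 235 CPM against 103, 42.8, 34.8 and 28.9, and Chrng at 278, 312, 294 and 155 against 59.7, 57.3, 53.2 and 34 (log2 2.26 ± 0.16 and 2.12 ± 0.15, adjusted p = 4.12e-17 and 1.57e-16). No range overlapped for these 4 genes. The hair cell acetylcholine receptor did not follow: Chrna9 was at 371, 302, 284 and 383 CPM in IHCs and 306, 277, 332 and 300.3 CPM in the others (log2 0.13 ± 0.11, adjusted p = 0.537), and its partner Chrna10 was lower in IHCs (log2 -0.67 ± 0.16, adjusted p = 0.00179), a call lost without replicate 2 (adjusted p = 0.214).

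On the other side, Cacng2 (stargazin), an auxiliary subunit of AMPA receptors (chr15:77991748-78120028, minus strand), was at 2.7, 0, 0 and 0 CPM in IHCs and 48.8, 70.3, 66 and 56.4 CPM in Fgf8-negative HCs (log2 -2.72 ± 0.26, adjusted p = 2.81e-12). The serotonin receptor Htr3a was at 8.54, 0, 0 and 2.65 against 36.6, 60.5, 80.5 and 37.3 CPM (log2 -2.31 ± 0.27, adjusted p = 2.15e-09), and the ATP-gated channel P2rx3 at 18.1, 28.9, 6.47 and 27.3 against 41.1, 61.2, 52.7 and 55.4 CPM (log2 -1.12 ± 0.24, adjusted p = 3.79e-04). Each of the 4 IHC libraries lay below each comparison library for these 3 genes.

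Windows of 250 bases before the start that RefSeq annotates are given for 3 of these genes, Atp2a3 as the gene with no UMI in the comparison cells, Kcnj13 as a risen and Cacng2 as a fallen channel gene, since they show what the letters before genes of opposite direction look like. Sequences are from RefSeq on GRCm38.p6, the assembly that mm10 names, written 5′ to 3′ on the gene's strand, and capitals mark the E-box CAGCTG, the kind of site that basic helix-loop-helix factors such as Atoh1 bind. Atp2a3 covers chr11:72960919-72961168 on the plus strand, Kcnj13 covers chr1:87394730-87394979 and Cacng2 covers chr15:78119281-78119530, both on the minus strand.
Atp2a3: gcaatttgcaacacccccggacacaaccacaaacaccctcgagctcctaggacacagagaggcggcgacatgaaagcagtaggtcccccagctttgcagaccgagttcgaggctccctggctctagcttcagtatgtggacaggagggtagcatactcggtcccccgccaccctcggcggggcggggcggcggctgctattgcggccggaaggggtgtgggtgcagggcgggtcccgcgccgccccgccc
Kcnj13: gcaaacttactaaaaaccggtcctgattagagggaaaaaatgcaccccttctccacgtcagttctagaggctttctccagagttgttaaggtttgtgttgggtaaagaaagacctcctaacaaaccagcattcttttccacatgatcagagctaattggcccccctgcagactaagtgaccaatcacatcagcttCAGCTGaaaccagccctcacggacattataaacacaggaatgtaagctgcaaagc
Cacng2: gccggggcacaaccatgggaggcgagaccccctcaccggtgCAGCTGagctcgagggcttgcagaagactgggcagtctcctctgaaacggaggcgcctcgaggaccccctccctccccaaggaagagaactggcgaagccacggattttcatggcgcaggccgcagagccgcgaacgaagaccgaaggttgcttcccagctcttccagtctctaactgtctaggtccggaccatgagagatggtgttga
The RefSeq start of Cacng2 lies inside the span given above, which is that of GENCODE, so its window is within that span. The E-box begins 55 bases before the RefSeq start of Kcnj13 and 209 before that of Cacng2, and the Atp2a3 window has none. Windows of 300 bases (250 before the start and 50 after) were found for 8 of the 12 named rises and 10 of the 12 named falls. Searched on both strands, CAGCTG was in a window of 1 risen and 2 fallen genes, and in 16.3% of all 32851 promoters. The T-box core GGTGTGA was in a window of none of the risen genes and 1 fallen gene, Mpc1, and in 3.98% of all promoters. A match is letters in a window and no evidence of binding.

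Among the other named rises, Fam19a3, a secreted chemokine-like protein, was at 247, 169, 228 and 121 CPM in IHCs and 0, 0.888, 1.48 and 0.614 CPM in Fgf8-negative HCs (log2 4.18 ± 0.23, adjusted p = 2.40e-21), and Shtn1 (shootin 1), which couples actin to adhesion in growing axons, at 219, 253, 152 and 107 and 2.38, 0, 1.74 and 0 CPM (log2 4.07 ± 0.23, adjusted p = 1.33e-20). Kcp, a secreted modulator of BMP signalling, was at 368, 404, 448 and 321 against 37.3, 23.9, 34.7 and 40.7 CPM (log2 3.17 ± 0.16, adjusted p = 3.69e-23). Outside the gate these 3 genes were at 0.687, 11 and 1.09 CPM. In the comparison libraries Fam19a3 was near that level, Shtn1 was below it and Kcp was above it.

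Ppm1j, a protein phosphatase, was at 124, 111, 102 and 77 CPM in IHCs and 0.571, 0, 1.72 and 0.955 CPM in Fgf8-negative HCs (log2 3.37 ± 0.24, adjusted p = 1.71e-16). It overlaps Fam19a3 on the opposite strand of chromosome 3, and Kcp, Tm6sf1, Kcnj13 and S100a1 also overlap another protein-coding gene. The strand setting of the counting is not given in the sources used here, so whether reads of overlapping genes were kept apart was not checked. Tm6sf1, Wdr95, Brip1 and Sestd1 completed the named rises, at means of 84.3 ± 51.2, 63.4 ± 15.2, 62 ± 24.3 and 70.8 ± 24 CPM in IHCs (SD, n = 4) and at most 9.59 CPM in any comparison library. Brip1, a DNA helicase (chr11:86058138-86201193, minus strand), and the gate gene Tbx2 (chr11:85832551-85841948, plus strand) are on the same chromosome.

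Transcription factors were lower more often than higher. Of 22 tested hair cell transcription factors 2 rose (9.09%), 9 fell (40.9%) and 11 did not pass (median -0.15), against 5.32 and 7.14% of all genes. Of these 11 calls, 8 held without each library, 3 without the library term and 4 after thinning. The falls include Insm1, which the study names for P1 OHCs from these libraries, and Bcl11b and Neurod6, from a list of textbook OHC genes. The share of falls is thus in part set by the choice of list. Bcl11b, a zinc finger repressor (chr12:107910403-108003602, minus strand), had no UMI in any of the 181 IHCs, which allows up to 1.66% of such cells to hold a UMI and sets no limit on how many express it. It was at 33.1, 73.3, 109 and 51.8 CPM in Fgf8-negative HCs. With 3 UMIs over the IHCs as a floor it was at least 30.0-fold lower in IHCs (log2 -2.84 ± 0.27, adjusted p = 1.96e-12). Zfp503, a zinc finger gene, was likewise at 0 in IHCs and at 54.2, 95.4, 77 and 88.7 CPM in Fgf8-negative HCs, at least 35.5-fold lower (log2 -3.13 ± 0.25, adjusted p = 1.11e-14). Thinned, 9.1% of Fgf8-negative HCs held a Bcl11b UMI and 12.1% a Zfp503 UMI, against 0.0535 and 0.214% outside the gate, and unthinned 31.3 and 34.7% against 0.222 and 0.642%. Neurod6, a neuronal basic helix-loop-helix factor, was at 2.7, 0, 4.36 and 12 CPM in IHCs and 75.3, 175, 194 and 168 CPM in the others (log2 -3.45 ± 0.23, adjusted p = 1.79e-17). Insm1, the zinc finger factor that keeps developing OHCs from taking IHC genes, was at 3.12, 0, 4.71 and 14.5 and 28.6, 46.6, 57.2 and 117 CPM (log2 -2.15 ± 0.25, adjusted p = 1.59e-09).

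Atoh1 and Pou4f3 differed by small amounts. Atoh1, the inducer of hair cells, was at 417, 554, 555 and 583 CPM in IHCs and 414, 769.9, 611 and 802 CPM in Fgf8-negative HCs (log2 -0.26 ± 0.09, adjusted p = 0.0434), and Pou4f3, needed for their survival, at 1222, 1462, 1046 and 1386 and 1160.3, 1731, 1319 and 1902 CPM (log2 -0.24 ± 0.07, adjusted p = 0.0113). Both groups overlap, and both calls were lost without replicate 3 (adjusted p = 0.0761 and 0.126), replicate 2 (0.294 and 0.0513) or replicate 4 (0.241 and 0.141). Gfi1 and Gata3 rose (319.6 ± 61.4 against 211 ± 84.9 CPM and 372 ± 87.2 against 249.6 ± 62 CPM, SD, n = 4; log2 0.65 ± 0.13 and 0.56 ± 0.11, adjusted p = 1.16e-04 and 1.16e-04). Hes6, a target of Atoh1, fell, at 432, 629, 730.3 and 543 against 681, 1391, 1771 and 909 CPM (log2 -0.94 ± 0.08, adjusted p = 3.44e-13).

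On the same scale the largest named fall was that of Cdh1 (E-cadherin, chr8:106603351-106670246, plus strand), an adhesion protein of epithelia, at 3.64, 0, 2.08 and 9.72 CPM in IHCs and 140.1, 196, 181 and 229 CPM in Fgf8-negative HCs (log2 -3.85 ± 0.22, adjusted p = 1.33e-20). Cells outside the gate held 60.6 CPM of it, so the IHCs were below both groups. Thinned, 0.552% of IHCs held a Cdh1 UMI (exact 95% interval 0.014 to 3.04%) against 24.2% of Fgf8-negative HCs and 8.84% outside the gate (2.76, 67 and 22.2% unthinned). Efna5, an ephrin that guides axons, was at 0, 0, 1.58 and 2.48 CPM in IHCs and 89.6, 116, 118 and 72.7 CPM in Fgf8-negative HCs (log2 -3.29 ± 0.25, adjusted p = 6.03e-16).

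Mpc1, a subunit of the mitochondrial pyruvate carrier, fell in a gene that both groups express well, at 260.2, 122, 124 and 217 CPM in IHCs and 1798, 1030.0, 900.2 and 1394 CPM in Fgf8-negative HCs, a 7.08-fold ratio (log2 -2.78 ± 0.09, adjusted p = 2.05e-30). Its level in IHCs was close to the 219 CPM outside the gate, where 27% of thinned cells held a UMI against 25.4% of IHCs (59.2 and 63% unthinned). Of 28 genes of the citric acid cycle and glutamine use, 0 rose and 2 fell by limma (1 and 3 at an unadjusted p under 0.05), Cs and Idh3g, and neither call held without each library (lost without replicate 4, adjusted p = 0.0848 and 0.265). The share that fell, 7.14%, was that of all genes, and the list median was 0.00.

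The other named falls were genes that cells outside the gate also hold. Cdkn1c, an inhibitor of cell division, was at 109.8, 73.8, 97.8 and 90.5 CPM in IHCs, 359, 629.8, 932 and 433 in Fgf8-negative HCs and 1208 on average outside the gate (log2 -2.46 ± 0.15, adjusted p = 6.66e-20). Igfbp5, which binds insulin-like growth factors, Tmem176b, a membrane protein, Agpat2, an enzyme of phospholipid synthesis, and Psme1, a proteasome activator, were at 19 ± 13.1, 26.2 ± 14.5, 6.2 ± 7.31 and 14.4 ± 6.09 CPM in IHCs and 188 ± 39.4, 212 ± 95.7, 109.7 ± 6.14 and 142 ± 42.2 CPM in Fgf8-negative HCs (SD, n = 4), with log2 fold changes of -2.86, -2.55, -2.98 and -2.62. Their levels outside the gate were 337, 239, 53.9 and 106 CPM, and the part of RNA from such cells in these differences was not tested.

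Signalling and wiring genes moved in part. Fgf10, a growth factor, rose (13.9, 29.2, 22.4 and 43.7 against 4.8, 0, 0 and 1.06 CPM, log2 1.66 ± 0.28, adjusted p = 7.93e-06) and the FGF receptor Fgfr3 fell (7.86, 0, 0 and 8.16 against 35.1, 24.2, 37.8 and 51 CPM, log2 -1.78 ± 0.26, adjusted p = 5.02e-07), while the other 6 of 8 tested FGF genes did not pass (median -0.18). Fgf10 was as high outside the gate (30.5 CPM) as in IHCs. Ntf3, the neurotrophin for spiral ganglion neurons, was at 49.3, 54.6, 92.9 and 97.2 CPM in IHCs and 21, 9.34, 13.5 and 27.5 CPM in Fgf8-negative HCs (log2 1.58 ± 0.23, adjusted p = 3.06e-07), whereas Bdnf was at 432, 416, 539 and 809 and 351, 462, 492 and 866 CPM with no difference past the test (log2 0.04 ± 0.09, adjusted p = 0.839). The call on Ntf3 was lost in cells drawn down to 1500 UMIs (adjusted p = 0.197), and cells outside the gate held 107 CPM. Over 14 tested guidance and neurotrophin genes 2 rose (14.3%) and 3 fell (21.4%, median -0.10). Of 16 tested Notch pathway and Id genes 2 rose (12.5%) and 6 fell (37.5%, median -0.24). The shares of all genes were 5.32 and 7.14%. Only 2 of the 8 calls on Notch pathway and Id genes, Hes6 and Dll3, held without each library, with 0 kept without the library term and 1 after thinning. Dll3, a Notch ligand, was at 62.1, 90.2, 61.4 and 19.2 against 125, 170.3, 176 and 43.8 CPM (log2 -1.0 ± 0.18, adjusted p = 1.64e-05).

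Hair bundle genes moved in both directions. Of 17 tested genes of mechanotransduction 1 rose, 2 fell and 14 did not pass (median -0.17), and of 20 genes of the stereocilia and their actin 3 rose (15%), 5 fell (25%) and 12 did not pass (median -0.17), against 5.32 and 7.14% of all genes. Whrn (whirlin), a scaffold at stereocilia tips, was at 39.9, 34.1, 92.4 and 61.8 CPM in IHCs and 105, 148, 186 and 132 CPM in Fgf8-negative HCs (log2 -1.24 ± 0.17, adjusted p = 1.47e-07), and Strc (stereocilin), which links stereocilia, at 28, 38.9, 9.95 and 36.6 and 61.6, 68.9, 65.6 and 76.5 CPM (log2 -1.10 ± 0.22, adjusted p = 1.60e-04). Espnl, an actin bundler, and Xirp2, an actin-binding repair protein, rose (276 ± 80.4 against 154 ± 40.5 and 284 ± 82.8 against 161 ± 17.7 CPM, SD, n = 4; log2 0.79 ± 0.13 and 0.75 ± 0.13, adjusted p = 2.66e-06 and 8.38e-06). None of the 8 stereocilia calls held without the library term, Strc being nearest (adjusted p = 0.0864).

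Genes that mark hair cells as a whole were more often higher in IHCs: of 12 tested 7 rose (58.3%), 2 fell (16.7%) and 3 did not pass (median 0.23). Of all genes, 5.32% rose and 7.14% fell. Of the 9 calls on hair cell markers, 6 held without each library, 4 without the library term and 5 after thinning. Rprm, a cell cycle arrest gene, was at 4141, 2928, 2244 and 2773 CPM in IHCs against 1181, 1012, 723 and 675 (log2 1.74 ± 0.06, adjusted p = 1.00e-28), and Cd164l2 at 1767, 1675, 1458 and 1173 against 783, 622, 587 and 632 (log2 1.19 ± 0.08, adjusted p = 9.63e-19). Neither range overlapped. The neurofilament Nefl was at 892, 927, 786 and 213 against 324, 243, 301 and 94.6 CPM (log2 1.44 ± 0.11, adjusted p = 5.57e-16), lowest in replicate 4 in both groups. Of 8 stress and dissociation genes 0 rose and 3 fell by limma (0 and 5 at an unadjusted p under 0.05, median -0.40), and their summed level was 983 to 2549.6 CPM in IHCs and 1292 to 2569.6 in Fgf8-negative HCs.

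**Figure D3:**
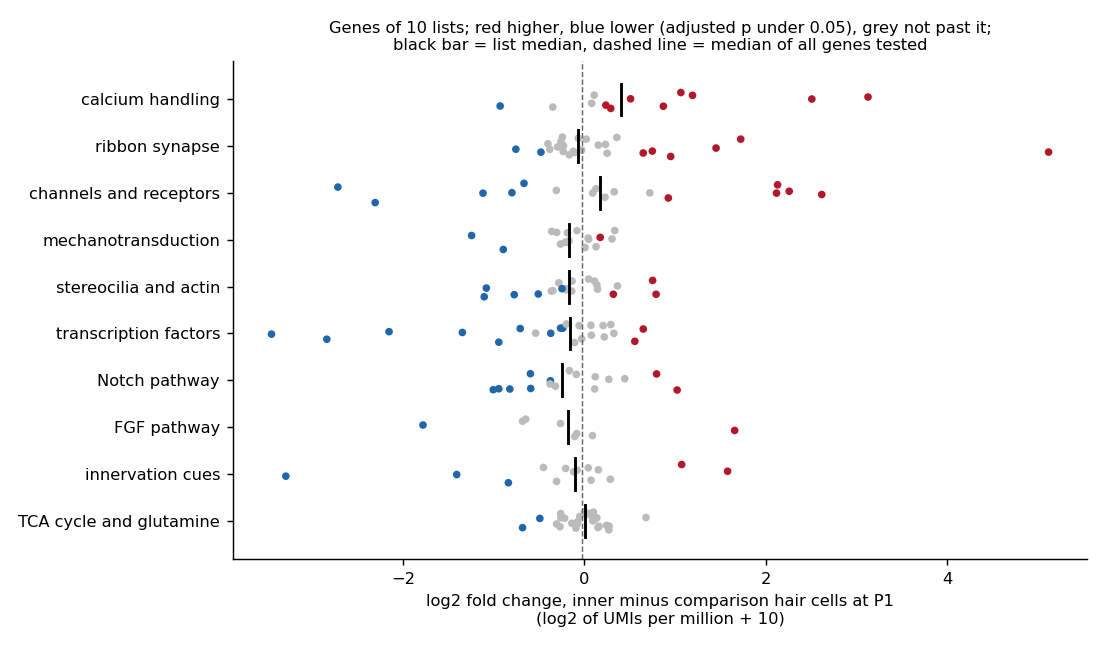
Log2 fold changes at P1 (x axis, IHC minus Fgf8-negative HC) of the tested genes of 10 lists (rows, of which the Notch pathway row includes Id genes), with 1 point per gene, red where it rose, blue where it fell and grey where it did not pass. Black bars mark list medians beside the dashed median of all genes at -0.03, and the calcium handling median of 0.40 lies farthest to the right.

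Of the genes that the study names for P7 hair cells, some passed at P1. Of the 144 genes of its P7 IHC list used here 136 were tested, 69 rose (50.7%), 13 fell (9.56%) and 54 did not pass, with a median of 0.39. Of the 161 genes of its P7 OHC list used here 134 were tested, 7 rose (5.22%), 56 fell (41.8%) and 71 did not pass, with a median of -0.32. Of all genes tested, 5.32% rose and 7.14% fell. Among textbook IHC genes 4 of 5 tested rose and Slc7a14 fell, a call lost without replicate 3 (adjusted p = 0.148), and among textbook OHC genes 2 of 8 rose and 4 fell. Lmod3, an actin nucleator on that OHC list, rose in IHCs (64, 109.8, 102 and 163 against 54.3, 37.5, 24 and 49 CPM, log2 1.2 ± 0.20, adjusted p = 7.69e-06), a call lost after thinning (adjusted p = 0.335) and without the library term (0.0574). The other rise on it, Sri, was lost without replicate 2 (adjusted p = 0.142) and in 5 other alternatives. For the study's P1 lists the medians were 4.07 (IHC) and -2.31 (OHC), and 4.18 and -2.33 with the genes at 0 set to their bounds.

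Single cells showed the same division. UMIs of 4 risen genes (Atp2a3, Cabp2, Shtn1 and Fam19a3) and of 3 fallen genes (Bcl11b, Insm1 and Neurod6) were summed in each cell. These sets were chosen after their values were seen, so the counts are a description. Of the 181 IHCs, 155 (85.6%) held only the first set, 8 held both, 3 held only the second and 15 held neither. Of the 769 Fgf8-negative HCs, 7 held only the first set, 32 both, 508 only the second and 222 neither. The 16 HCs with Tbx2 and no Fgf8, which belong to neither group, were mixed, at 4, 1, 5 and 6 cells.

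**Figure D4:**
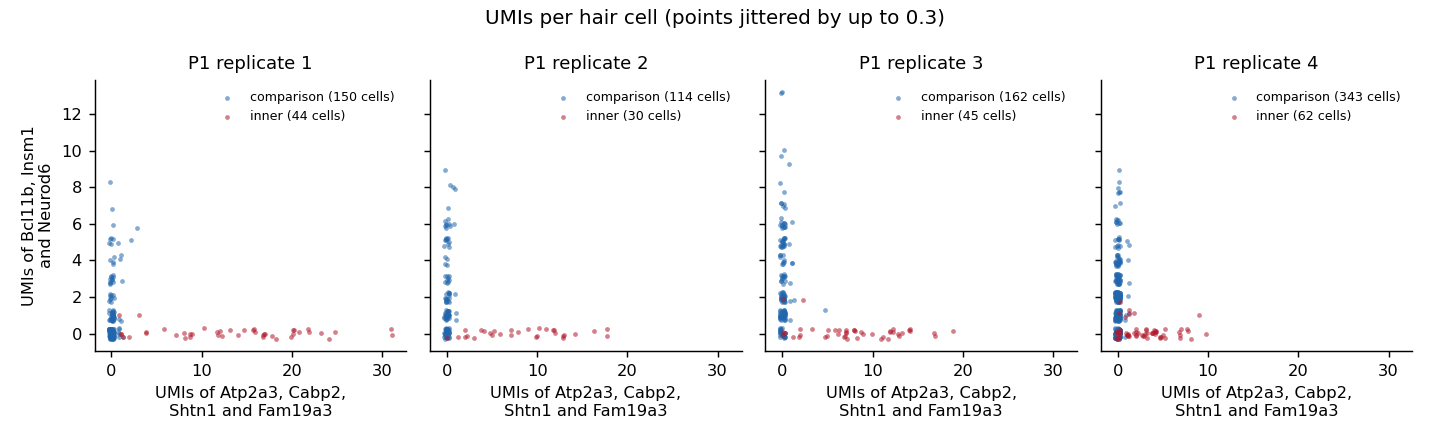
Each P1 hair cell by its UMIs of Atp2a3, Cabp2, Shtn1 and Fam19a3 (x axis) and of Bcl11b, Insm1 and Neurod6 (y axis), in 1 panel per library, with points jittered. IHCs (red) lie along the x axis with up to 31 UMIs, lowest in replicate 4 (up to 10), and Fgf8-negative HCs (blue) along the y axis with up to 13.

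Cells with fewer Fgf8 UMIs, the value that chose them, were also shallower. With 5 or more Fgf8 UMIs 136 of 145 cells (93.8%) held the first set, with 2 to 4 UMIs 22 of 28 (78.6%), and with 1 UMI 5 of 8 (62.5%), at median depths of 8077, 5453.5 and 2285.5 UMIs. The second set was held by 9, 1 and 1 of these cells (6.21, 3.57 and 12.5%). By library, 95.5, 96.7, 88.9 and 71.0% of IHCs held only the first set, with medians of 14.5, 8.5, 8 and 3 UMIs of it. Replicate 4 was lowest in both and shallowest. The share of IHCs with any UMI of the second set was 6.08%, against 70.2% of Fgf8-negative HCs.

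The IHC profiles of the 4 libraries, each from 30 to 62 cells, varied widely for single genes. Over 3444 genes with at least 50 CPM in IHCs, the highest library was a median of 1.96 times the lowest, and 608 genes spanned 3-fold or more. Some of the widest were genes of Kölliker's organ, such as Tecta and Col9a1, proteins of the tectorial matrix and cartilage, whose levels outside the gate were above 900 CPM in each library.

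The E16 libraries, set beside P1 after the P1 values had been seen, gave 96 IHCs (22, 50 and 24 cells) and 317 Fgf8-negative HCs (86, 141 and 90) by the same gate, at medians of 4035 and 3403 UMIs per cell. Of the 96 E16 IHCs 15 rested on 1 Fgf8 UMI, with a median of 4, so the gate held them less firmly than at P1. Tbx2 was found in 33.3% of them, at 36.4, 40 and 16.7% in E16 replicates 1 to 3. Of 8696 genes tested, 84 were higher in E16 IHCs (0.966%) and 83 were lower (0.954%), 1.92% in all. Leaving out E16 replicate 2, the library with most cells in the gate, left 33 and 22, and leaving out replicate 3 left 52 and 46. Of the 12 named P1 rises 10 were tested at E16, all 10 had the same sign and 5 passed. Of the 12 named falls 11 were tested, all 11 had the same sign and 9 passed. Over all P1 calls, 314 of 386 higher genes (81.3%) and 395 of 563 lower genes (70.2%) tested at E16 kept their sign there, where 47.6% of all 8696 genes were above 0. Fewer passed at E16 with the same sign, 56 of the 386 (14.5%) and 57 of the 563 (10.1%), against 0.966 and 0.954% of all genes. The E16 and P1 HCs come from different libraries, but both gates use the same genes. Blood markers (8 genes) summed to 17.1 to 86.1 CPM in E16 IHCs and 29.0 to 2695 CPM in E16 Fgf8-negative HCs. The 10 markers of Kölliker's organ, which include Calb1, summed to 1606 to 1737 CPM in IHCs and 745 to 1148 CPM in Fgf8-negative HCs. The part of either in the E16 results was not tested.

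Several of these genes were apart at E16. Bcl11b was at 0 in the 3 E16 IHC profiles and at 53, 56.4 and 46.2 CPM in E16 Fgf8-negative HCs (log2 -2.63 ± 0.61, adjusted p = 0.00604; adjusted p = 0.245 without replicate 2 and 0.109 without replicate 3), and Cdh1 was at 8.43, 20.9 and 7.45 against 247, 225 and 112 CPM (log2 -3.18 ± 0.45, adjusted p = 8.62e-07). Cabp2 was at 160.2, 57.9 and 33.9 CPM in E16 IHCs and 0, 0 and 2.65 in the others (log2 2.88 ± 0.60, adjusted p = 0.00192; adjusted p = 0.0627 without replicate 2), and Brip1 at 95, 127 and 180.1 and 0, 0 and 5.39 CPM (log2 3.60 ± 0.54, adjusted p = 3.95e-06). For Shtn1 (14.5, 52.5 and 35.4 against 5.3, 0 and 5.19 CPM, log2 1.63 ± 0.62, adjusted p = 0.233) and Kcnj13 (0, 38.1 and 40.4 against 0, 3.14 and 0 CPM, log2 1.4 ± 0.64, adjusted p = 0.393) the E16 difference did not pass, although it did without E16 replicate 1 (adjusted p = 0.0332 and 0.0391). That a gene passed at P1 and not at E16 does not show that the ages differ.

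The difference between ages was tested itself, as the P1 gap between IHCs and Fgf8-negative HCs minus the E16 gap, a test added after the data were seen. Of 8931 genes 11 had a higher gap at P1 (0.123%) and 32 a lower one (0.358%), and these counts ranged from 2 to 39 and from 5 to 103 when 1 library was left out. Without P1 replicates 1 to 4 in turn 3, 2, 3 and 3 genes were higher and 11, 5, 7 and 12 lower, without E16 replicate 1 the counts were 39 and 103, and without E16 replicate 2, 33 genes were higher. Of the named genes 3 were among them. S100a1 opened its gap, from 3227, 3723 and 5396 against 1296, 1196 and 1385 CPM at E16 to the P1 values above (0.88 ± 0.13, adjusted p = 0.00551 for the difference of gaps), a call lost without P1 replicate 2 (adjusted p = 0.0502). The Mpc1 gap widened downward, from 143, 162 and 142 against 302, 455 and 422 CPM at E16 (-1.45 ± 0.19, adjusted p = 0.00221), and this call held without each library, while its level in IHCs was 149 ± 11 CPM at E16 (n = 3) and 181 ± 68.8 CPM at P1 (n = 4). Cacng2 was at 0, 0 and 0 CPM in E16 IHCs and 0, 6.11 and 0 CPM in E16 Fgf8-negative HCs, so its P1 gap was larger (-2.49 ± 0.45, adjusted p = 0.0249), but this call was lost without E16 replicate 3 (adjusted p = 0.0511) and without each P1 library (0.0622, 0.127, 0.112 and 0.0996 for replicates 1 to 4).

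The calcium buffer Calb1 (calbindin) went the other way. At E16 it was at 337, 615 and 894 CPM in IHCs and 91.2, 162 and 76.3 CPM in Fgf8-negative HCs (log2 2.34 ± 0.26, adjusted p = 1.88e-09). At P1 it was at 3107, 1428, 1332 and 1941 CPM and 3053, 1057, 888 and 2059 CPM (log2 0.24 ± 0.07, adjusted p = 0.014), a call lost without replicate 2 or 3 (adjusted p = 0.179 and 0.406). The gap was thus smaller at P1 (-2.10 ± 0.30, adjusted p = 0.00371), with the Fgf8-negative HC mean at 109.9 ± 45.8 CPM at E16 (SD, n = 3) and 1764 ± 1003 CPM at P1 (n = 4). The call on the gap held without each library in turn and was lost with no filter on low values (adjusted p = 0.208). Calb1 is also a marker of Kölliker's organ, whose markers summed higher in IHCs at E16 as given above. That sum includes Calb1 itself, so it is no separate measure. Of the 9 markers tested at E16, 7 were above 0 (median log2 difference 0.45), Calb1 passed and 8 did not. The part of such cells in the Calb1 values was not tested.

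IHCs themselves changed between E16 and P1. Of 8873 genes tested between the 4 P1 and 3 E16 IHC profiles, 261 were higher at P1 (2.94%) and 178 were lower (2.01%), 4.95% in all, with a median log2 difference of 0.16 over all genes. P1 IHCs were also the deeper cells, and each library holds 1 age, so age and library cannot be told apart except by the spread between libraries. These profiles are the same as those used in the P1 and the E16 comparison. Without P1 replicate 2, 3 or 4 the counts were 109 and 93, 122 and 113, and 166 and 118, and 109 genes were lower without E16 replicate 2. With means of the deposited log values in place of CPM, 679 were higher and 155 lower.

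Several calcium, channel and synapse genes rose with age. Calb2 rose from 125, 189 and 187 CPM at E16 to the P1 levels of 2587, 1750.3, 1237 and 1369 CPM (log2 3.26 ± 0.28, adjusted p = 4.84e-07), Kcnj13 from 0, 38.1 and 40.4 CPM (log2 3.42 ± 0.47, adjusted p = 1.02e-04) and Chrna1 from 0, 10.7 and 24.8 CPM (log2 3.82 ± 0.44, adjusted p = 1.26e-05). Otof rose from 313, 239 and 217 CPM (log2 2.13 ± 0.26, adjusted p = 3.21e-05) and Cabp2 from 160.2, 57.9 and 33.9 CPM (log2 2.84 ± 0.41, adjusted p = 1.59e-04). For each of these 5 genes the lowest P1 library was above the highest E16 library. Kcnj13 and Cabp2 were also higher at P1 than at E16 in Fgf8-negative HCs, by the values given above. For both, the gap between the groups did not pass limma's test between ages (adjusted p = 0.376 and 0.0784). A rise larger in IHCs than in Fgf8-negative HCs was thus not shown for them. Of 12 tested calcium handling genes 5 rose (41.7%) and 0 fell by limma (6 and 0 at an unadjusted p under 0.05), and of 24 ribbon synapse genes 5 rose (20.8%) and 0 fell (9 and 0). Of 14 ion channels and receptors 5 rose (35.7%), P2rx3 fell (7.14%) and 8 did not pass. Over all genes tested between ages, 2.94% rose and 2.01% fell. Of 133 P7 IHC genes 39 rose (29.3%) and 7 fell (5.26%), and of 125 P7 OHC genes 16 rose (12.8%) and 3 fell (2.4%). The share of rises was thus above the 2.94% of all genes in both P7 lists. Gfi1 was at 82.1, 44.5 and 93.3 CPM at E16 and 284, 299, 284 and 411 CPM at P1 (log2 2.02 ± 0.34, adjusted p = 6.31e-04), the larger of 2 rises among 21 tested transcription factors.

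Other named rises included metabolic, splicing and histone genes. Pgam2, a muscle enzyme of glycolysis, rose from 0, 23.6 and 229.9 to 531, 816, 1114 and 359.7 CPM (log2 3.93 ± 0.63, adjusted p = 4.99e-04), Snrnp25, a protein of the minor spliceosome, from 0, 109 and 103 to 1118, 787, 741 and 451 CPM (log2 3.86 ± 0.57, adjusted p = 1.71e-04), and the histone gene Hist1h2bc from 57.9, 19.6 and 98 to 340.0, 713, 301 and 888 CPM (log2 3.10 ± 0.42, adjusted p = 9.50e-05). Their means in Fgf8-negative HCs were 8.08 ± 2.86, 110.1 ± 51.6 and 15.7 ± 17.8 CPM at E16 (SD, n = 3) and 258 ± 95.2, 457 ± 116 and 516 ± 140.3 CPM at P1 (n = 4), so they were higher at P1 in both groups. Ttll3, a tubulin-modifying enzyme, and Mycbpap completed the list (log2 2.95 ± 0.48 and 2.91 ± 0.49, adjusted p = 5.86e-04 and 6.31e-04).

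Id2, Id3, Tmsb10, Tmsb4x and Cldn6 fell. Id2, an inhibitor of basic helix-loop-helix factors, fell from 1085, 808 and 1002 CPM at E16 to 151, 97.3, 207 and 109 CPM at P1 (log2 -2.73 ± 0.30, adjusted p = 9.28e-06), and Id3, of the same family, from 405, 462 and 383 to 153, 4.2, 109 and 29.6 CPM (log2 -2.89 ± 0.56, adjusted p = 0.0025). Of 18 tested Notch pathway and Id genes 0 rose and 5 fell (27.8%) by limma (1 and 7 at an unadjusted p under 0.05), against 2.94 and 2.01% of all genes. The actin-binding thymosins fell together, Tmsb10 from 1742, 1794 and 1359 to 199, 169, 275 and 151 CPM and Tmsb4x from 810.1, 690.2 and 213 to 71.9, 32.3, 108 and 65.9 CPM (log2 -3.0 ± 0.28 and -2.76 ± 0.43, adjusted p = 4.84e-07 and 2.81e-04). Cldn6, a tight junction protein of embryonic epithelium, fell from 242, 200.2 and 235 to 4.15, 35.3, 34.1 and 6.2 CPM (log2 -3.18 ± 0.47, adjusted p = 1.82e-04). Mfap4, a matrix protein, Angpt1, a vascular growth factor, and Phf6, a chromatin protein, also fell (log2 -3.25 ± 0.40, -2.80 ± 0.52 and -2.63 ± 0.54, adjusted p = 3.23e-05, 0.00181 and 0.0043). In Fgf8-negative HCs Tmsb10 went from 1869.5 ± 187 to 205 ± 26.9 CPM and Id2 from 706 ± 287 to 222 ± 93.5 CPM (SD, n = 3 and 4). Marker lists of other cell types also moved between these IHC profiles. Without overlap, 10 markers of Kölliker's organ summed to 1606 to 1737 CPM at E16 and 2309 to 5464 CPM at P1, with Calb1 and Clu called higher and Dcn and Epyc lower. That sum includes Calb1, whose rise in IHCs is given above. Of the 9 markers tested, only 2 (Calb1 and Clu) were above 0, and the list median was -0.52 against 0.16 for all genes. Also without overlap, 9 inner phalangeal cell markers summed to 301 to 1176 CPM at E16 and 159 to 291 CPM at P1, with Gjb2 called lower. The 6 mesenchymal markers, 5 of them at 0 at E16 and 3 at P1, summed to 85.6 to 110.7 and 17.6 to 55.9 CPM, with Lum called lower. The sums of the pillar and Deiters, Hensen, roof and glial lists overlapped between ages. The part of these cells in the age differences was not tested.

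**Figure D5:**
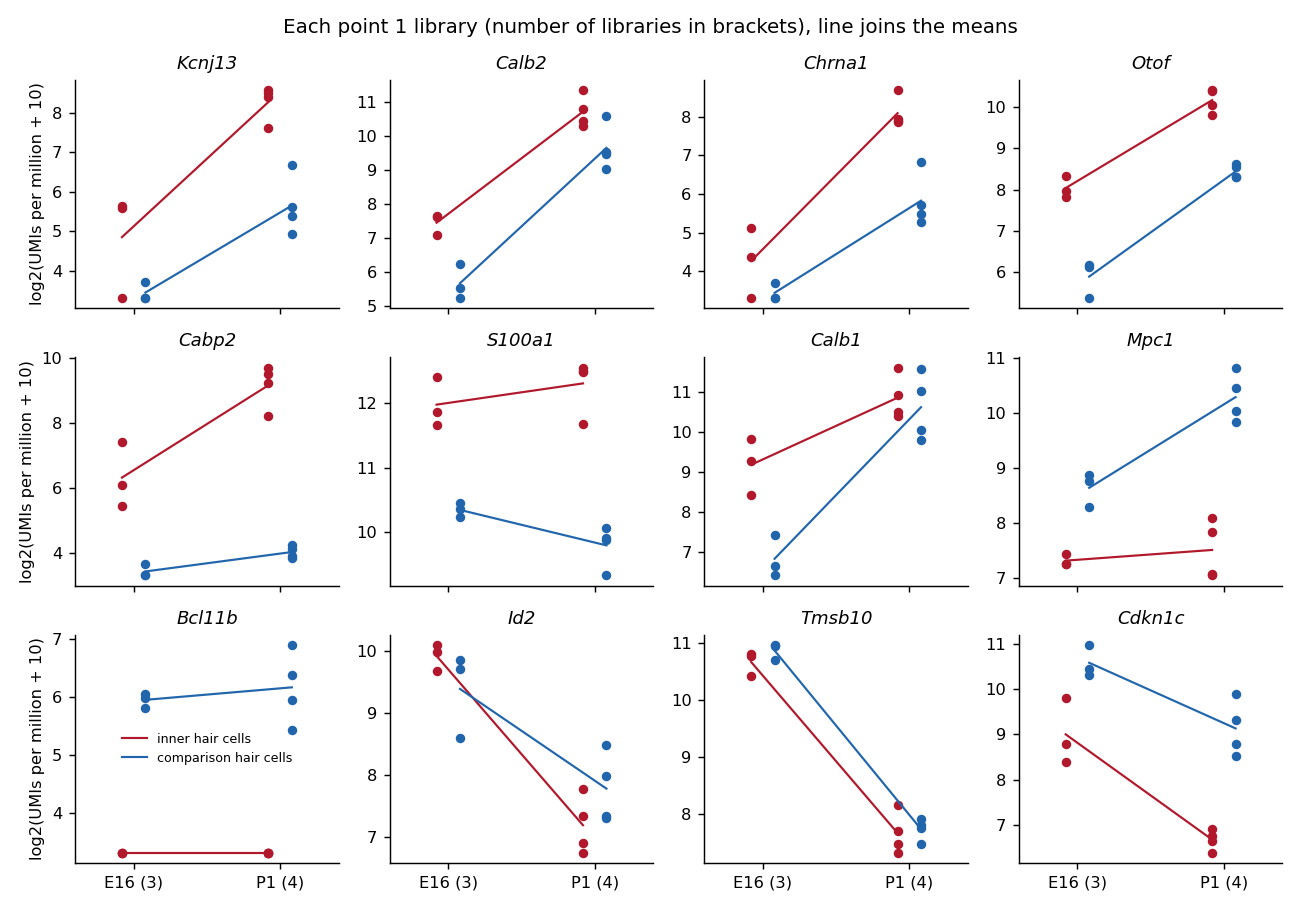
Log2(CPM + 10) (y axes) of 12 genes at E16 (3 libraries) and P1 (4 libraries) in IHCs (red) and Fgf8-negative HCs (blue), with 1 point per library and lines joining the means. The Calb1 lines start apart and lie close at P1, the Mpc1 and S100a1 lines move apart, Bcl11b stays at 0 in IHCs, and Id2 and Tmsb10 fall in both groups.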

How the data were processed

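Cells of 4 P1 and 3 E16 10x libraries were analysed, grouped by the sample labels. The values deposited by the authors are natural log values, in which a gene's share of the UMIs in a cell was multiplied by 10000, raised by 1 and logged. The submitters' processing notes name mm10, Cell Ranger 2.1.1 and Seurat 2.0. UMIs worked back from these values were whole within 2% for 100% of values above 0, and P1 libraries held 11829392 to 23523802 UMIs.

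Each library gave 1 profile per class of at least 5 cells, the mean of the CPM of its cells, so that a cell is never a replicate. Profiles entered limma 3.58.1 (R 4.3.3, trend, log2(CPM + 10), two-sided, Benjamini-Hochberg threshold 0.05) for genes averaging 10 CPM or more, with library as a block within an age. This pairing comes from both classes sharing 1 pool of animals: deviations of both P1 classes from their means correlated at 0.63, 0.36, 0.41 and 0.71, each highest with its own library. Gate genes were left out. Named genes were the 12 largest rises and falls (8 in the age comparison) past the threshold, with 1 sign in each library (ages that do not overlap) and at least 50 CPM in the higher group, without Gm-numbered, Rik, mitochondrial, ribosomal protein and haemoglobin genes, beside members of the gene lists. The gate, the members and the lists were chosen with earlier results of these data known. The E16 comparison and the test between ages were added after the data were seen.

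Shares of cells were taken after thinning to 1500 UMIs (seed 1) with exact 95% intervals. The intervals for single genes pool the cells of all P1 libraries and cover counting error only. Doublets were called in P1 libraries with Scrublet (scanpy 1.11.5, python 3.11.15, expected rate 0.06) and kept. Gene positions are from GENCODE vM21 and promoters from RefSeq, both GRCm38. Fits were tested on simulated data. Libraries are litters. Within an age, p-values set the difference between the groups against its variation from library to library. For IHCs between ages they set the difference against the spread between libraries. In both cases limma moderates the variance of a gene towards a trend over all genes tested. E14 was not used, and a comparison with P7 was not made.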

Additional observations from a re-analysis of the deposited data

Results flagged for a closer look

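In 63 groups of 4 libraries of the named genes, 6 had 1 library apart from the others by Dixon's ratio at its 95% critical value, where chance gives about 3.15, or 1 group in 20. In P1 IHCs these were S100a1 at 3273 CPM in replicate 4, with the other 3 libraries at 5714 to 5990.2 CPM, Cacng2 at 2.70 CPM in replicate 1 with the others at 0, Chrna1 at 401 CPM in replicate 1 with the others at 221 to 235 CPM, Mfap4 at 60.9 CPM in replicate 3 with the others near 20 CPM, and Angpt1 at 11.2 CPM in replicate 2 with the others at 0. In Fgf8-negative HCs it was Tmem176b at 68.6 CPM in replicate 4, with the others at 252 to 268 CPM.

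The gap between IHCs and Fgf8-negative HCs differed between P1 and E16 by limma's test of the difference, added after the data were seen, for S100a1 (0.88 on the log2 scale, adjusted p = 0.00551), Mpc1 (-1.45, adjusted p = 0.00221) and Cacng2 (-2.49, adjusted p = 0.0249). The Mpc1 call held without each of the 7 libraries, that of S100a1 was lost without P1 replicate 2 (adjusted p = 0.0502), and that of Cacng2 without E16 replicate 3 (0.0511) and without each P1 library (0.0622 to 0.127). With no filter on low values, S100a1, Mpc1 and Cacng2 did not pass this test (adjusted p = 0.208, 0.0512 and 0.208).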

How the results depend on the processing

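The direction of the 24 named P1 genes and their side of the threshold held under each alternative run on them, and so did those of the 16 genes named between ages, except Pgam2, Snrnp25, Id3 and Phf6 with a pseudocount of 1 CPM (adjusted p = 0.0514, 0.0517, 0.0684 and 0.0544) and Phf6 after thinning (0.133). No named gene reversed. Of the 1107 P1 calls, 1080 of 1091 tested kept their sign after thinning and 1078 of 1081 without cells over 3000 genes. Counts of higher and lower genes moved more, and the cause was not tested beyond what each alternative changes.

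At P1, 473 and 634 genes became 265 and 355 with no filter, 283 and 400 at 50 CPM or more, 135 and 217 after thinning to 1500 UMIs, 147 and 224 without cells over 3000 genes, and 108 and 106 without the replicate block, of which 214 were among the 1107 calls. Leaving out 1 library gave 323 to 426 and 429 to 530. The share of IHCs among HCs (19.8%) was 16.2% after thinning and 18.95 to 21.3% without 1 library.

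Between ages, 261 and 178 became 118 and 84 with a pseudocount of 1 CPM, 104 and 84 after thinning, 166 and 101 in cells of 4000 to 10000 UMIs, 679 and 155 with means of the deposited ln values, and 204 and 186 with median centring, which removes the shift of 0.16. Leaving out 1 library gave 109 to 340 and 93 to 223. The replicate number as a block gave 278 and 206. E16 and P1 numbers do not pair libraries (correlations 0.05, -0.02 and -0.02, highest with the own number in 1 of 3).

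At E16, 84 and 83 became 36 and 17 with a pseudocount of 1 CPM, and 46 lower at 50 CPM or more. Leaving out 1 library gave 33 to 105 and 22 to 92. For the gap between ages, 11 and 32 became 3 and 11 with a pseudocount of 1 CPM, 1 and 2 with no filter, 28 higher with 50 CPM and 7 higher at 50 CPM or more. Leaving out 1 library gave 2 to 39 and 5 to 103. The P7 comparison was not run, since the gate leaves under 5 cells a library. After thinning, Slc17a8 and Dnajc5b did not pass (0.0647 and 0.113), with log2 fold changes of 1.66 and 1.48 against 1.45 and 1.36 in whole cells.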
